A study of Mus musculus with 7 samples.

Results

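Muscle keeps its supply of ATP steady with a small group of gene products. Phosphocreatine hands its phosphate to ADP through the creatine kinases. Adenylate kinase and AMP deaminase deal with the ADP and AMP left over from contraction, and myoglobin stores oxygen. Carbonic anhydrase III, an abundant cytosolic protein of slow fibres, is listed with them here. Creatine itself is made elsewhere for the most part and is taken up from the blood by a transporter. The 10 genes described here were taken from the table by a list of symbols, drawn up with earlier results of these data known: the creatine synthesis enzymes Gatm and Gamt, the creatine transporter Slc6a8, the creatine kinases Ckm, Ckb and Ckmt2, the adenylate enzymes Ak1 and Ampd1, the myoglobin gene Mb and the carbonic anhydrase gene Car3. All 10 were among the 29869 rows of the deposited table, all 10 were among the 14033 genes with enough reads to test, and together they took 1.75% to 2.60% of the counts of a library.

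Read counts per gene came from RNA sequencing of the whole soleus, a postural hindlimb muscle, of 7 mice aged 60 days. All of them carried mdx, the dystrophin mutation that models Duchenne muscular dystrophy. By the sample titles 4 libraries were mdx and 3 were mdx/Runx1f/f, that is, with floxed alleles of the transcription factor gene Runx1. The labels name no Cre driver, so how and in which cells the floxed alleles would be recombined is not given in the sources used here. The titles name a different animal for each library. The design text of the series gives the group sizes the other way round, and the description field gives all but mdx replicate 1 another animal number than the title, so the groups are called by their titles throughout.

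Library totals ran from 16529110 to 18550109 counts in the group labelled mdx and from 16218306 to 20847902 in the group labelled mdx/Runx1f/f. Runx1 stood at 274, 273, 235 and 201 normalised read counts (the authors' counts divided by a size factor) in the libraries labelled mdx and at 919, 925 and 596 in those labelled mdx/Runx1f/f (log2 difference 1.74, adjusted p = 0.00795 by edgeR). It was thus higher where the label names the floxed alleles, the opposite of a loss of counts over the whole gene. The counts are per gene, so the loss of a floxed exon was not tested. Each direction below rests on the titles. One library stood apart in its myosin genes. The fast myosin gene Myh4 stood at 246072 in mdx/Runx1f/f replicate 1, at 53268 and 1293 in replicates 2 and 3, and between 739 and 8982 in the libraries labelled mdx. The slow myosin gene Myh7, which marks the fibres typical of a soleus, was present in all 7 libraries and was lowest in the same replicate 1, at 40503, against 133265 and 128319 in replicates 2 and 3 and 140992 to 275132 in the libraries labelled mdx.

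None of the 10 genes was called different between the groups (quasi-likelihood test of edgeR, p adjusted by Benjamini-Hochberg, threshold 0.05), while 6.95% of all tested genes were. In the group labelled mdx/Runx1f/f 5.10% were higher and 1.85% lower. At an unadjusted p below 0.05 there were 4 of 10, Gatm, Gamt, Ckmt2 and Car3, against 29.5% of all tested genes. The groups did not overlap for 2 of 10, Gatm and Car3, against 27.4% of all tested genes. These were also the nearest to the threshold: Gatm had a higher mean and Car3 a lower mean in the libraries labelled mdx/Runx1f/f. DESeq2 called both, 1 higher against a background of 10.7% and 1 lower against 6.32%. Limma-voom called Car3 alone, 0 higher against 5.24% and 1 lower against 2.05%. The authors' deposited table also gives these 2 of the 10 an adjusted p below 0.05, against 19.0% of its genes with an adjusted p. The median log2 fold change was -0.27 over the 10 genes and -0.0016 over all tested genes, with 3 positive and 7 negative values among the 10.

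**Figure D1:**
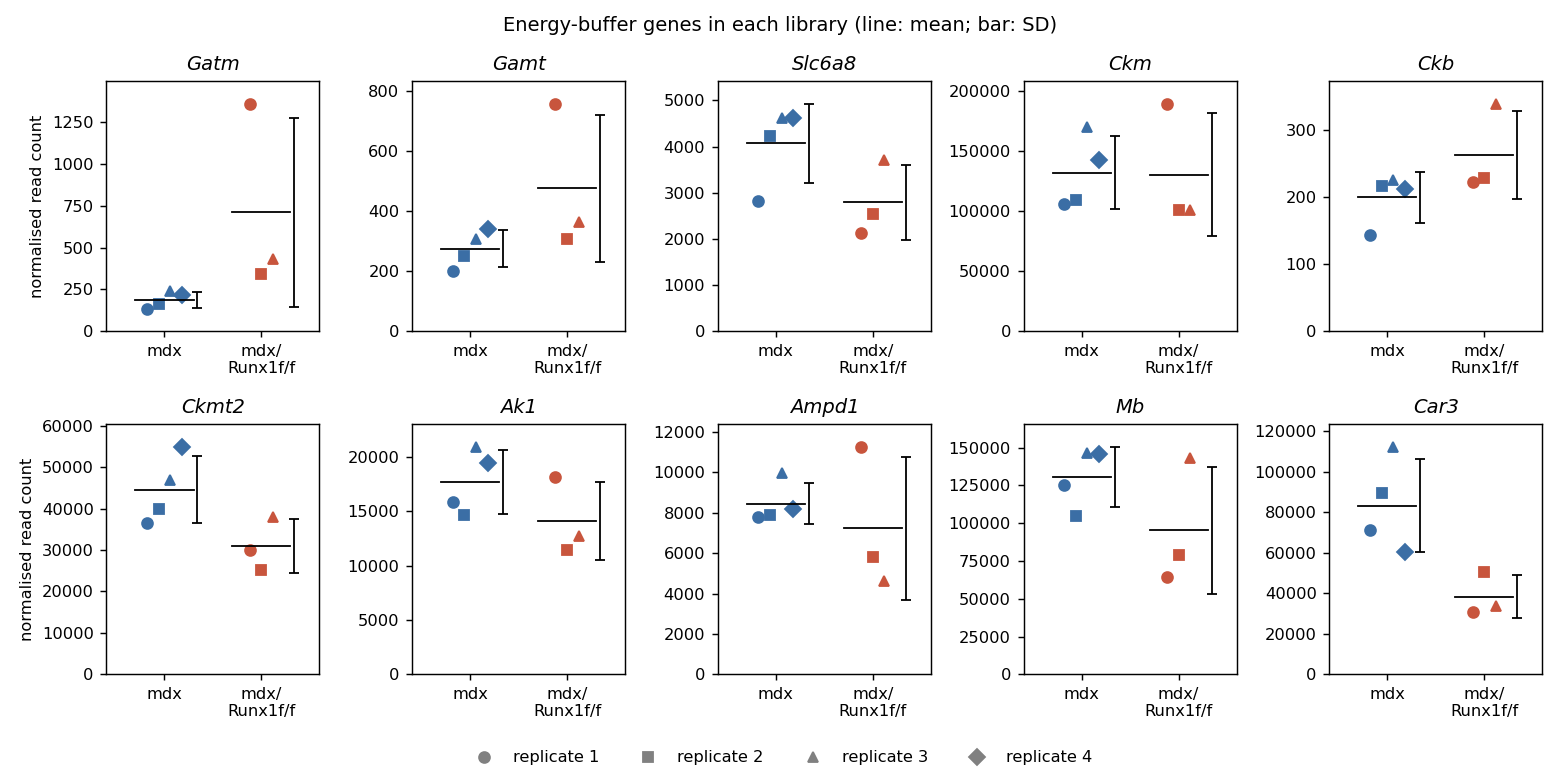
Normalised read count (vertical axis) of each of the 10 genes in the 4 libraries labelled mdx (blue) and the 3 labelled mdx/Runx1f/f (red), with a line at the mean and a bar for the SD. Gatm and Car3 are the 2 genes whose groups do not overlap, and mdx/Runx1f/f replicate 1 (red circle) is the highest or lowest of all libraries in 7 of the 10 panels.

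Levels of different genes were compared per kilobase of coding sequence (lengths from GENCODE vM21). On this scale the level of Mb was the highest in the libraries labelled mdx, at 282773 ± 42829 normalised counts per kb (SD, n = 4), followed by Ckm at 115305 ± 26517, Car3 at 106913 ± 29231, Ckmt2 at 35422 ± 6442 and Ak1 at 28104 ± 4678. Ampd1 (3784 ± 454), Slc6a8 (2118 ± 447), Gamt (364 ± 81.1), Ckb (175 ± 32.9) and Gatm (147 ± 37.7) came after. Libraries of neighbouring genes in this order overlapped for Ckm and Car3, for Ckmt2 and Ak1 and for Ckb and Gatm. With the longest transcript as the length, Car3 came before Ckm in the libraries labelled mdx and the rest of the order stayed. The distances changed, with Ckmt2 at a mean of 29963 and Ak1 at 8492 per kb of transcript. The overlaps given in this paragraph were read on the coding length alone and depend on it. The enzymes of creatine synthesis and Ckb lay at the bottom of the range. In the group labelled mdx/Runx1f/f the order of the means was the same except that Gatm stood above Ckb, at 561 ± 444 against 230.4 ± 57.7 (SD, n = 3). Neighbours in the mdx order overlapped there for Mb and Ckm, for Ckmt2 and Ak1 and for Ckb and Gatm. In replicate 1 of that group Ckm, at 165577 per kb, stood above Mb, at 139126, and Gatm, at 1072, stood above Gamt, at 1001. The longest transcript is 2389 bases for Gatm and 988 for Gamt, and the order of Gatm and Gamt in that library depends on the length used.

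**Figure D2:**
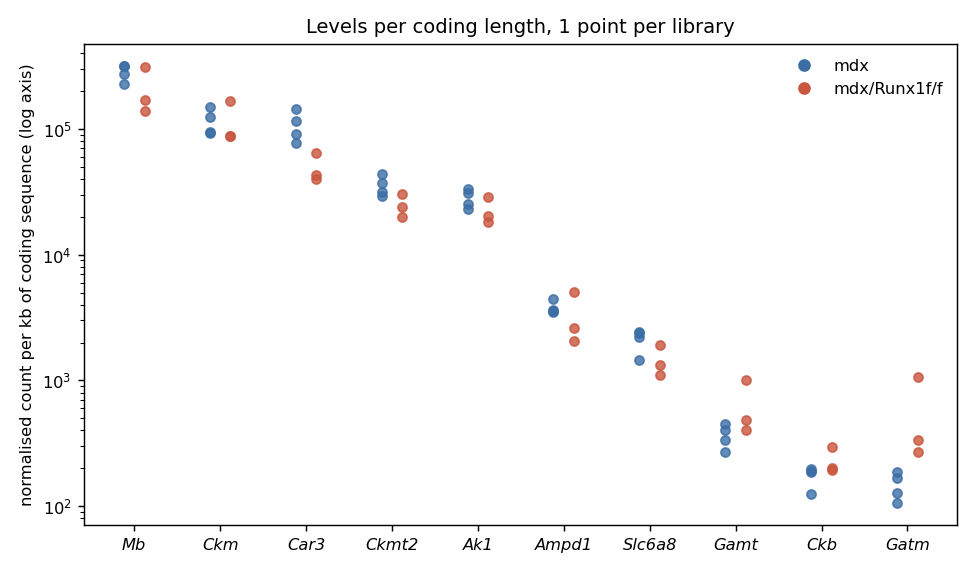
Normalised read count per kilobase of coding sequence (log axis) of the 10 genes, ordered by their mean in the libraries labelled mdx, with 1 point per library. By their means Mb is highest and Ckb and Gatm are lowest in both groups, while the red points of Mb and Ckm overlap.

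The first step of creatine synthesis is made by Gatm, the arginine:glycine amidinotransferase that forms guanidinoacetate, and the second by Gamt, which methylates it. The RefSeq promoter table (GRCm38.p6) held 7 of the 10 genes at 12 start sites. The 250 bases before the start are shown for both synthesis genes, whose patterns across the libraries were alike, and for the muscle and brain creatine kinases as examples of a fibre gene and a gene of other tissues. Capitals mark matches on either strand to the E-box CANNTG, bound by myogenic factors, the Runx cores TGTGGT and TGCGGT, the TATA box TATAAA, or the MEF2 and CArG motifs. The regions were chr2:122611278-122611527 (minus strand) for Gatm, chr10:80261013-80261262 (minus) for Gamt, chr7:19410844-19411093 (plus) for Ckm and chr12:111672339-111672588 (minus) for Ckb.
Gatm: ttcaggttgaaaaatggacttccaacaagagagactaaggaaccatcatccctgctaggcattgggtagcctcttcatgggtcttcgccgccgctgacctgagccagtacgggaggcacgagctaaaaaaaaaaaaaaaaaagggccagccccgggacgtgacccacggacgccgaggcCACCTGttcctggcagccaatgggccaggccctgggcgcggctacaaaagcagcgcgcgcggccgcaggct
Gamt: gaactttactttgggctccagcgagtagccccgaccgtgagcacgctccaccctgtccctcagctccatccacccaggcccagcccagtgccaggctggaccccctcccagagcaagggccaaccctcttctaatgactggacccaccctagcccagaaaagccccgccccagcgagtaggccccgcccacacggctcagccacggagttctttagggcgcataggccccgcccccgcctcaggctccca
Ckm: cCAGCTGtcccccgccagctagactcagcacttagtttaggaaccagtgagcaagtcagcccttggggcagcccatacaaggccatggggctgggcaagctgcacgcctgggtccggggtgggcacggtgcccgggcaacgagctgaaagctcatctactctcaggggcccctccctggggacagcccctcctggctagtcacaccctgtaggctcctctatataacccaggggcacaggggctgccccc
Ckb: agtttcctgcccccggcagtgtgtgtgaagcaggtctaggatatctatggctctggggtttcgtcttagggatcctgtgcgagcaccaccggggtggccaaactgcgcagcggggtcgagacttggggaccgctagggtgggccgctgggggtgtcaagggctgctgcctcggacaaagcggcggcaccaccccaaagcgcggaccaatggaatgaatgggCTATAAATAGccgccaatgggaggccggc
Gatm and Ckm each held 1 E-box and Gamt held no match. Ckb held 1 MEF2 match that overlaps its TATAAA match. Only the exact letters TATAAA were searched for the TATA box, so the letters tatataa near the end of the Ckm window are not marked. None of these windows held a Runx core. Among all 32817 promoter windows of that length in the table, 66.2% held the E-box, 4608 windows held TGTGGT, 5.09% TGCGGT, 12.4% the TATA box, 2.92% the MEF2 and 1.47% the CArG motif. Of the 12 windows of the 7 genes, 3 held a Runx core, at start sites of Ak1 and Mb, against 18.6% of all windows with either core. A match to letters is a description of the sequence, and binding was not measured.

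Gatm stood at 134, 161, 238 and 214 normalised counts in the libraries labelled mdx and at 1360.3, 344 and 429 in those labelled mdx/Runx1f/f. All 3 of the latter lay above all 4 of the former, and replicate 1 lay far above its own group. The means were 187 ± 47.8 (SD, n = 4) and 711 ± 564 (SD, n = 3), 3.81-fold apart, with a log2 change of 1.94 (SE 0.48, adjusted p = 0.0504 by edgeR, higher in 3 of 3 libraries). DESeq2 gave an adjusted p of 0.000722 and limma-voom 0.0802, and the adjusted p ranged from 0.000722 to 0.181 over all alternatives. Median-ratio scaling, no filter and a filter of 10 CPM moved it just under the threshold (adjusted p = 0.0496, 0.0414 and 0.0482 by edgeR). Leaving out replicate 1 of mdx/Runx1f/f, the log2 change of Gatm was 1.05 (adjusted p = 0.0554 by edgeR). The animals were also split by title number into 358 to 363 and 373 to 375, a division made here that no label names as a batch. Within animals 358 to 363 the log2 change of Gatm was 2.54 (adjusted p = 0.181 by edgeR) and within animals 373 to 375 it was 0.93. The latter series holds 1 library labelled mdx/Runx1f/f against 2 labelled mdx, and the lone library is assumed to vary like those 2. The authors' deposited table gives Gatm a log2 change of 1.37 (SE 0.35) with an adjusted p of 0.00155. DESeq2 in the later version run here gave 1.93 (SE 0.46), so the 2 values are not on a like scale, and the reason was not tested.

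Gamt followed the same libraries at a smaller scale. It stood at 202, 252, 306 and 342 normalised counts in the libraries labelled mdx and at 757, 307 and 364 in the others, so that the groups overlapped and replicate 1 was again the highest. The difference in log2 was 0.80 (95% interval 0.05 to 1.56, adjusted p = 0.151 by edgeR), and without mdx/Runx1f/f replicate 1 it was 0.28 (adjusted p = 0.423 by edgeR). Within animals 358 to 363 Gamt had 1.24 and within animals 373 to 375 it had 0.17. Among 9498 genes with a mean of at least 100 normalised counts, the same pair came closest to both across the 7 libraries: the imprinted gene Peg10 and the cardiac actin gene Actc1, an actin of fetal and regenerating muscle, with a Pearson correlation of 0.98 and 0.98 for Gatm and of 0.97 and 0.97 for Gamt. Next came Celf2 for Gatm (0.98) and Tceal7 for Gamt (0.96). Actc1 stood at 860, 1097, 2156 and 2300.2 normalised counts in the libraries labelled mdx and at 13147, 2713 and 4623 in the others (log2 fold change 2.10, adjusted p = 0.0615 by edgeR). These likenesses were picked as the highest of many over 7 libraries that share the group difference, and they carry no test.

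Slc6a8, the sodium-dependent creatine transporter of the fibre membrane, went the other way in its mean. It stood at 2809, 4229.5, 4619.5 and 4611 normalised counts in the libraries labelled mdx and at 2122, 2547 and 3699 in the others. The groups overlapped, since mdx replicate 1 lay among the libraries of the other group. On the log2 scale the difference was -0.54 (95% interval -1.08 to 0.01, adjusted p = 0.173 by edgeR), and within animals 373 to 375 it was -0.31. Closest in pattern were Nmd3 (0.99), the mitochondrial fission gene Dnm1l (0.99) and the mitochondrial ribosome gene Mrpl28 (0.99).

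Ckm, the cytosolic creatine kinase of mature fibres, had nearly equal means, 131794 ± 30308 (SD, n = 4) and 130242 ± 51106 (SD, n = 3). It stood at 105861, 108971, 169842 and 142503 normalised counts in the libraries labelled mdx and at 189254, 100785 and 100687 in the others. Replicate 1 of mdx/Runx1f/f held the highest value of all 7 and the other libraries of its group the lowest. The log2 fold change was -0.01 (adjusted p = 0.993 by edgeR), with a 95% interval from -0.75 to 0.73, which leaves room for differences of that size either way. Without mdx/Runx1f/f replicate 1 it was -0.39 (adjusted p = 0.356 by edgeR), within animals 358 to 363 it was 0.45 and within animals 373 to 375 it was -0.63. The patterns most like it were those of Casq1, the calsequestrin of fast fibres (0.98), Park7 (0.98) and Pygm, the muscle glycogen phosphorylase gene (0.98).

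Ckmt2, the sarcomeric mitochondrial creatine kinase that charges creatine at the inner membrane, stood at 36558, 39901, 46785 and 54859 normalised counts in the libraries labelled mdx and at 29956, 25198 and 38023 in the others. Replicate 3 of mdx/Runx1f/f lay above mdx replicate 1, and the groups overlapped by that pair of libraries. The difference in log2 was -0.51 (95% interval -1.02 to -0.01, adjusted p = 0.166 by edgeR). Its nearest patterns were those of Dcp1a (0.99), the mitochondrial gene Rtn4ip1 (0.99) and Hadh, an enzyme of fatty acid oxidation (0.99). Per kilobase of coding sequence the level of Ckmt2 was 31.4%, 33.3%, 25.0% and 35.0% of that of Ckm under the label mdx and 14.4%, 22.7% and 34.3% in the others, lowest in replicate 1. The size of these shares depends on the length used. Per kilobase of the longest transcript the means under the label mdx were 29963 for Ckmt2 and 48065 for Ckm.

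Ckb, the creatine kinase of brain, smooth muscle and immature muscle, was a minor transcript. It stood at 144, 217, 225 and 212 normalised counts in the libraries labelled mdx and at 222, 228 and 339 in the others, and the groups overlapped. On the log2 scale the difference was 0.41 (95% interval -0.08 to 0.89, adjusted p = 0.233 by edgeR), and without mdx/Runx1f/f replicate 3, which held the highest value, it was 0.17 (adjusted p = 0.581 by edgeR). Within animals 373 to 375, where that library stands alone, it was 0.64 (adjusted p = 0.0607 by edgeR). Per kilobase of coding sequence the level of Ckb was 0.133% to 0.199% of that of Ckm under the label mdx and 0.117%, 0.227% and 0.337% in replicates 1 to 3 of the others. These shares also depend on the length used. Per kilobase of the longest transcript the means under the label mdx were 136 for Ckb and 48065 for Ckm. Closest in pattern were Ltbp3, a latent TGF-beta binding protein gene (0.99), Mrgprf (0.98) and Arl15 (0.98).

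Ak1, the cytosolic adenylate kinase that makes ATP and AMP from ADP, stood at 15843, 14649, 20920.3 and 19411 normalised counts in the libraries labelled mdx and at 18161, 11435 and 12712 in the others. Replicates 2 and 3 of mdx/Runx1f/f lay below all others, while replicate 1 lay within the range of the libraries labelled mdx. The log2 fold change was -0.32 (95% interval -0.81 to 0.17, adjusted p = 0.345 by edgeR). It was -0.55 without mdx/Runx1f/f replicate 1 and -0.19 without replicate 2 of that group. Within animals 358 to 363 it was -0.03 (adjusted p = 0.960 by edgeR). Within animals 373 to 375, where 1 library labelled mdx/Runx1f/f stands against 2, it was -0.66 (adjusted p = 0.0424 by edgeR). The patterns most like it were those of Rpl3l, the ribosomal protein gene of striated muscle (0.99), Btrc (0.99) and Ppp1r14c (0.98).

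Ampd1, the AMP deaminase of muscle that turns AMP into IMP, stood at 7789, 7901, 9958 and 8182 normalised counts in the libraries labelled mdx and at 11258, 5819 and 4607 in the others, so that replicate 1 was the highest and replicates 2 and 3 the lowest of all 7, and the groups overlapped. The difference in log2 was -0.22 (95% interval -0.89 to 0.46, adjusted p = 0.658 by edgeR). Without mdx/Runx1f/f replicate 1 it was -0.70 (adjusted p = 0.0562 by edgeR), without replicate 2 or 3 of that group it was -0.08 or 0.017, and without mdx replicate 3 it was -0.13. Within animals 373 to 375, where the lone library labelled mdx/Runx1f/f is assumed to vary like the 2 labelled mdx, it was -0.97 (adjusted p = 0.00609 by edgeR), and within animals 358 to 363 it was 0.14. Its nearest patterns were those of Camk2g (0.99), Syngr2 (0.99) and Tmem109 (0.98).

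Mb encodes myoglobin, the oxygen store of slow and oxidative fibres. It stood at 125452, 104828, 146729 and 145556 normalised counts in the libraries labelled mdx and at 64276, 78685 and 142906 in the others. Replicates 1 and 2 of mdx/Runx1f/f lay below every library labelled mdx and replicate 3 lay among them. On the log2 scale the difference was -0.45 (95% interval -1.18 to 0.28, adjusted p = 0.371 by edgeR), and without mdx/Runx1f/f replicate 3 it was -0.87 (adjusted p = 0.0740 by edgeR). Without replicate 1 of that group it was -0.24, within animals 358 to 363 it was -0.67 and within animals 373 to 375 it was -0.03. Closest in pattern were Egln3, an oxygen-sensing prolyl hydroxylase gene (0.98), Adcy2 (0.98) and Ptgr2 (0.98). In GENCODE vM21 the opposite strand gene Gm49540 covers 37.0% of the exons of Mb, and A930016O22Rik covers 16.4% of those of Ckm. The strand setting of the counting is not given in the sources used here, so reads of such pairs cannot be told apart.

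Car3 encodes carbonic anhydrase III, an abundant cytosolic protein of slow fibres and of adipocytes. It stood at 71104, 89766, 112334 and 60365 normalised counts in the libraries labelled mdx and at 30969, 50662 and 33810.0 in the others. All 3 libraries labelled mdx/Runx1f/f lay below all 4 labelled mdx, and the gap was between 50662 and 60365. The means were 83392 ± 22800.1 (SD, n = 4) and 38480.4 ± 10645 (SD, n = 3), 2.17-fold apart, with a log2 change of -1.11 (SE 0.29, adjusted p = 0.0553 by edgeR, lower in 3 of 3 libraries). DESeq2 gave an adjusted p of 0.000698, limma-voom 0.0419 and edgeR with a term for the animal number series (358 to 363 or 373 to 375) 0.0478, and the adjusted p ranged from 0.000698 to 0.226 over all alternatives. Whichever library was left out, the log2 fold change of Car3 lay between -1.35 and -0.93 and edgeR made no call. Within animals 358 to 363 it was -0.97 and within animals 373 to 375 it was -1.35. The authors' deposited table gives Car3 a log2 change of -0.98 (SE 0.25) with an adjusted p of 0.00118, where DESeq2 as run here gave -1.11 (SE 0.26). The patterns most like it were those of Mepce (0.99), Wbp11 (0.98) and BC055806 (0.98).

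**Figure D3:**
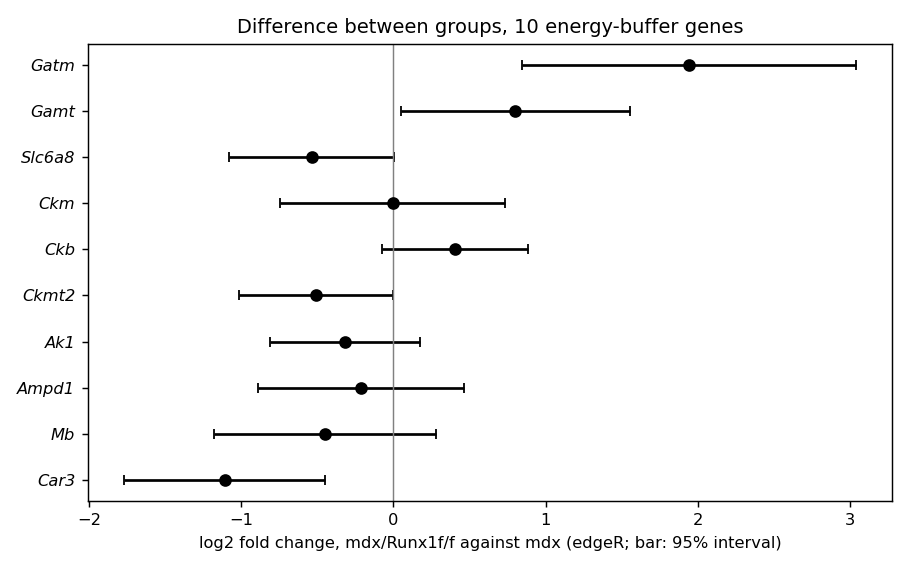
Log2 fold change of each gene in the libraries labelled mdx/Runx1f/f against those labelled mdx (horizontal axis), with its 95% interval from edgeR. The intervals of Gatm, Gamt, Ckmt2 and Car3 leave out 0 before adjustment, and none of the 10 was called after it.

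Replicate 1 of mdx/Runx1f/f was the highest of all 7 libraries for Ckm, Ampd1, Gatm and Gamt and the lowest for Slc6a8, Mb and Car3, 7 of 10, while it was the highest or lowest for 28.9% of all tested genes. That count was made after the values were seen. The fast-fibre list (14 tested) summed to 1781406 normalised counts in this library, to 702301 and 694349 in replicates 2 and 3 and to 622569.5 to 1073602 in the libraries labelled mdx. The part of fibre type in these values was not tested.

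**Figure D4:**
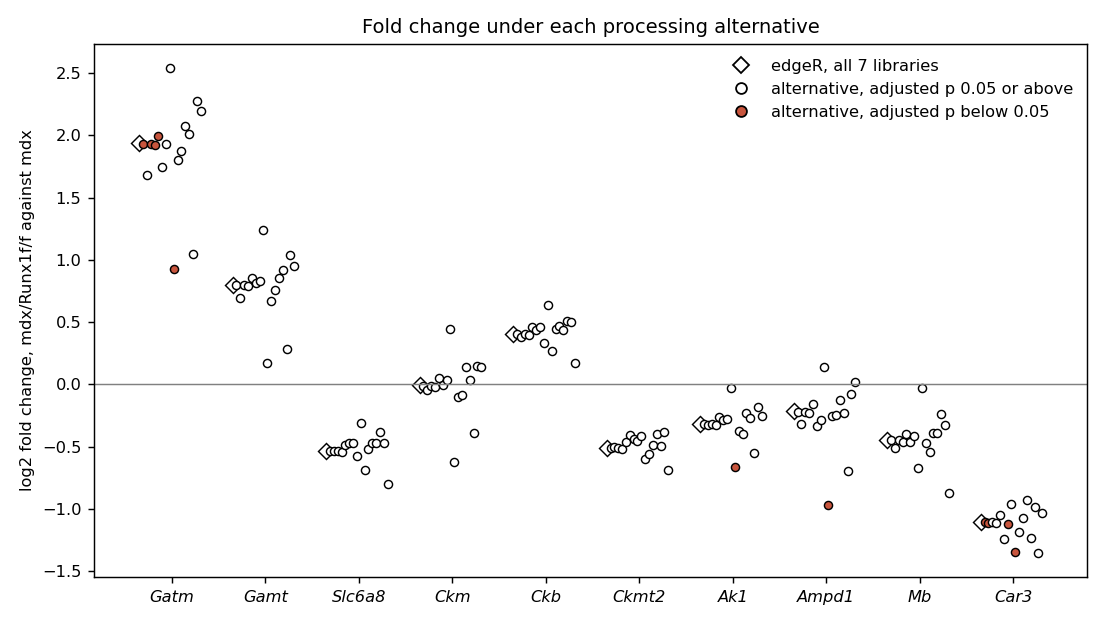
Log2 fold change of each gene (vertical axis) with edgeR on all 7 libraries (diamond) and under each of 16 alternatives (circles), filled where the adjusted p was below 0.05. Ckm and Ampd1 lay on either side of 0, and every other gene kept its side under all 16. The filled circles belong to Gatm, Ak1, Ampd1 and Car3.

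Lists of related genes were read from the same edgeR fit. Over all tested genes, the background for each list below, edgeR called 5.10% higher and 1.85% lower. Of the same genes 29.5% had an unadjusted p below 0.05 by edgeR, and the groups did not overlap for 27.4%. DESeq2 called 10.7% higher and 6.32% lower. Of 17 tested genes of other adenylate kinases and the purine nucleotide cycle 1 rose and 2 fell by edgeR (median log2 fold change 0.20). Among them 8 had an unadjusted p below 0.05 by edgeR, and DESeq2 called 4 higher and 2 lower. Adk, the adenosine kinase gene, fell from a mean of 1847 ± 219 normalised counts (SD, n = 4) to 1014 ± 80.5 (SD, n = 3), a log2 change of -0.86 (adjusted p = 0.0133 by edgeR). Its call held whichever library was left out, with the highest adjusted p by edgeR at 0.0499. Adsl, the adenylosuccinate lyase of the purine nucleotide cycle, fell from a mean of 3024 ± 320.1 (SD, n = 4) to 1941 ± 10.8 (SD, n = 3), a log2 change of -0.63 (adjusted p = 0.0183 by edgeR), and lost the call without mdx/Runx1f/f replicate 2 (adjusted p = 0.0618 by edgeR). Nt5e, the ecto-nucleotidase CD73 that releases adenosine outside the cell, had a log2 change of 1.43 (adjusted p = 0.0265 by edgeR) and kept the call in 2 of 7 leave-one-out fits. It was lost without mdx replicate 2, 3 or 4 and without mdx/Runx1f/f replicate 2 or 3. With the title number as a block the adjusted p was 0.0467 for Adk, 0.0562 for Adsl and 0.0798 for Nt5e (edgeR).

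The phosphocreatine shuttle also uses the adenine nucleotide carrier and the porins of mitochondria. Of 7 tested genes of that list edgeR and limma-voom called 0, 3 had an unadjusted p below 0.05, and DESeq2 called 0 higher and 3 lower (median -0.29). Slc25a4, the carrier of muscle, had a log2 change of -0.45 (adjusted p = 0.185 by edgeR) and the porin Vdac1 -0.55 (adjusted p = 0.0658 by edgeR). The groups did not overlap for either, as for 27.4% of all tested genes. Of 8 genes of the AMP-activated kinase, the sensor of the AMP that Ak1 makes, edgeR and limma-voom called 0, 2 had an unadjusted p below 0.05 and DESeq2 called 1, lower (median -0.0002). Prkaa2 had -0.34 (adjusted p = 0.178 by edgeR) and Prkab2 0.43 (adjusted p = 0.352 by edgeR).

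Of 8 other globins and oxygen-sensing genes 3 had an unadjusted p below 0.05 by edgeR, and DESeq2 called 1 higher and 1 lower. By edgeR 1 rose and 0 fell (median -0.01). The risen gene was Cygb, the cytoglobin of fibroblasts, from a mean of 662 ± 131 normalised counts (SD, n = 4) to 1205 ± 22.0 (SD, n = 3), a log2 change of 0.87 (adjusted p = 0.0207 by edgeR), and its call was lost without mdx replicate 3 or mdx/Runx1f/f replicate 2 (highest adjusted p = 0.0636 by edgeR). Of 10 other carbonic anhydrases 0 rose and 1 fell by edgeR (median -0.14). In that list 4 had an unadjusted p below 0.05 by edgeR, and DESeq2 called 2 higher and 2 lower. Car4, the membrane-bound enzyme of capillaries, had a log2 change of -0.73 (adjusted p = 0.0342 by edgeR) and kept the call without mdx/Runx1f/f replicate 1 only (highest adjusted p = 0.0884 by edgeR). Of 13 regulators of muscle energy genes 0 rose and 1 fell by edgeR (median -0.26). Among these 6 had an unadjusted p below 0.05 by edgeR, and DESeq2 called 1 higher and 2 lower. Six4, a homeodomain factor that acts on fibre genes, had -0.78 (adjusted p = 0.0296 by edgeR) and kept the call without mdx replicate 1 or mdx/Runx1f/f replicate 3 only (highest adjusted p = 0.0919 by edgeR).

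In whole muscle fewer fibres, or less RNA per fibre, cannot be told apart from lower expression in each. The slow and oxidative list (12 tested) had a median of -0.98, 0 calls by edgeR and limma-voom, 7 genes at an unadjusted p below 0.05 and 3 lower by DESeq2, and its sum was 755478 to 1087007 normalised counts under the label mdx and 222721 to 728995 in the others, without overlap, as for Car3. Myh7 had -1.15 (adjusted p = 0.139 by edgeR) and Myh2 -0.18 (adjusted p = 0.819 by edgeR). The 10 pan-fibre markers had a median of -0.32, 0 calls by edgeR and limma-voom, 3 at an unadjusted p below 0.05 and 3 lower by DESeq2, with sums of 1460864 to 1772159.7 under the label mdx and of 1160937 to 1420757 in the others, again without overlap. Among them Acta1 had -0.31 (adjusted p = 0.521 by edgeR) and Ttn -0.22 (adjusted p = 0.631 by edgeR). The 14 fast-fibre markers had a median of 0.13, 0 calls by edgeR and limma-voom, 2 at an unadjusted p below 0.05 and 1 higher by DESeq2, with Atp2a1 at 0.07 (adjusted p = 0.928 by edgeR) and Tnnt3 at 0.13 (adjusted p = 0.830 by edgeR). The 8 regenerating-fibre markers had a median of 1.12, 0 calls by edgeR and limma-voom, 5 at an unadjusted p below 0.05 and 3 higher by DESeq2. Their sum was 7829 to 14254 under the label mdx and 33209, 10439 and 23556 in the others, and Myh3, the embryonic myosin gene, had 1.17 (adjusted p = 0.161 by edgeR). Over all tested genes 29.5% had an unadjusted p below 0.05 by edgeR, and the groups did not overlap for 27.4% of single genes. The part of these lists in the values of the 10 genes was not tested.

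All 10 fibro-adipogenic stromal markers rose, with a median of 1.24, and their sum was 47551 to 68727 normalised counts under the label mdx and 142813 to 165407 in the others. Dpt (1.27), Lum (1.28) and Pdgfra (1.08) stayed called with any 1 library removed (highest adjusted p by edgeR 0.0300, 0.0333 and 0.0359). Among the others Col1a1 and Pi16 kept the call in 6 of 7 such fits, losing it without mdx/Runx1f/f replicate 2. Mfap5 kept it in 4 of 7 (lost without mdx replicate 3 or 4 or mdx/Runx1f/f replicate 2) and Gsn in 4 of 7 (lost without mdx replicate 2, 3 or 4). These 4 genes also lost it with the title number as a block, at an adjusted p by edgeR of 0.0534 for Col1a1 and Mfap5, 0.0560 for Gsn and 0.0593 for Pi16. Of 10 adipocyte markers 5 rose and 0 fell by edgeR (median 2.13), among them Adipoq (2.26), Cfd (2.20) and Pck1 (2.00), each at an adjusted p by edgeR of 0.0281. In the list 9 had an unadjusted p below 0.05 by edgeR, and DESeq2 called 7 higher and 1 lower. Adipoq stood at 209, 107, 105 and 90.8 normalised counts in the libraries labelled mdx and at 296, 541.5 and 998 in the others, so that the groups did not overlap. The summed list was 45682 to 50369 under the label mdx and 25982 to 50321 in the others, most of it from the lipoprotein lipase gene Lpl, which fibres also express (-0.72, adjusted p = 0.0689 by edgeR). Adipocytes also express Car3, and the part of these markers in its values was not tested. The 3 calls were lost without mdx replicate 2, 3 or 4 or mdx/Runx1f/f replicate 2, and that of Adipoq also without mdx/Runx1f/f replicate 3. Of 12 genes listed as macrophage markers 3 rose by edgeR, with a median of 1.66 and with sums of 3755 to 16927 and 15325 to 45008. All 12 had a positive log2 change, 10 had an unadjusted p below 0.05 by edgeR, and DESeq2 called 7 higher. The 3 genes called by edgeR were Ptprc (1.70), which is not specific to macrophages, C1qa (1.75) and C1qb (1.84). These calls were lost without mdx replicate 2, 3 or 4 or mdx/Runx1f/f replicate 1 or 2, and that of C1qb also without mdx/Runx1f/f replicate 3. Of 7 Schwann cell markers 3 rose by edgeR, S100b (1.24), Pmp22 (0.65) and Mbp (0.62), with a median of 0.65 and with sums of 2231 to 2923 and 3748 to 4249. All 7 had a positive log2 change, 6 had an unadjusted p below 0.05 by edgeR, and DESeq2 called 6 higher. The call of S100b was lost without mdx replicate 3, and those of Pmp22 and Mbp without mdx replicate 2, 3 or 4 or mdx/Runx1f/f replicate 2, with Pmp22 also lost without mdx/Runx1f/f replicate 3 and Mbp without replicate 1.

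Of 8 endothelial markers 1 rose and 0 fell (median -0.02), Vwf at 0.89 (adjusted p = 0.0243 by edgeR), with the call lost without mdx replicate 2, 3 or 4 or mdx/Runx1f/f replicate 2. The endothelial sum was 10145 to 18583 under the label mdx and 11715 to 16665 in the others. Of 8 smooth muscle and pericyte markers edgeR and limma-voom called 0, 5 had an unadjusted p below 0.05 and DESeq2 called 2 higher (median 0.44), with Rgs5 at -0.07 (adjusted p = 0.853 by edgeR) and Acta2, at 0.78, near the threshold (adjusted p = 0.0518 by edgeR). Of 3 tested red blood cell markers edgeR, DESeq2 and limma-voom called 0, and 0 had an unadjusted p below 0.05 (median 0.59). Hba-a2 stood at 339 ± 73.6 (SD, n = 4) and 509 ± 183 normalised counts (SD, n = 3) and Hbb-b1 at 109 ± 12.7 and 153 ± 45.0, far fewer than the counts of Mb. The list summed to 395 to 609 under the label mdx and to 469 to 1018 in the others, and the smooth muscle and pericyte list to 10321 to 14249 and to 12725 to 19333.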

How the data were processed

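For 7 soleus libraries the authors deposited a single table with 29869 symbols. It holds raw counts per gene, made with TopHat2 2.0.10 and HTSeq on mm9, per the submitters' processing notes. Next to them are the same counts over a size factor for each library, a normalised signal as the authors deposited it. The authors' log2 fold changes with their SE, and their p-values and adjusted p-values, are in the same table per the file headers, and the notes name DESeq2 1.6.3. For annotation, strand setting and filters: not given in the sources used here. Libraries were grouped by sample title, with 4 labelled mdx and 3 labelled mdx/Runx1f/f, and columns were joined to the titles by animal number.

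The comparison was fitted with edgeR 4.0.16 (R 4.3.3): TMM, filterByExpr (14033 genes, 99.9% of counts) and quasi-likelihood F tests on group alone, adjusted by Benjamini-Hochberg over all tested genes and called at an adjusted p below 0.05. The SE was the log2 fold change over the root of F. Alternatives were DESeq2 1.42.0, limma-voom (limma 3.58.1), median-ratio scaling, other filters, the title number as a block, the animal number series, each series alone and each library left out. On simulated data with 14033 genes and 200 changed, 50.5% of 2-fold and 86.8% of 4-fold changes were recovered and 5.96% of calls were false, averaged over 10 simulations. Depth was 16218306 to 20847902 counts per library.

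The 10 genes were given by symbol. The 17 lists (177 of 182 entries in the table), like the members, were chosen with earlier results of these data known. Named in each list were the called genes, at most the 3 with the smallest p, or else the 2 with the highest mean, and for each of the 10 genes the 3 others with the highest Pearson correlation of log2 CPM (prior count 2), without predicted genes. Promoters came from RefSeq on GRCm38.p6 and lengths from GENCODE vM21, not mm9, so no coordinates were set against the counts. The Runx1 check and the choice to single out mdx/Runx1f/f replicate 1 used the values themselves.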

Additional observations from a re-analysis of the deposited data

Results flagged for a closer look

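Ckb in the libraries labelled mdx was flagged because 1 of the 4 stood far from the rest: mdx replicate 1 was at 144 normalised counts and the others were between 212 and 225, so that the gap took a share of 0.841 of the whole range, above the 95% critical value of Dixon's test for 4 samples. That library was also the lowest of its group for Gatm, Gamt, Slc6a8, Ckm, Ckmt2 and Ampd1. Of the 11 genes looked at in this group, the 10 energy-buffer genes and Runx1, this was the only one flagged, and chance flags about 1 group in 20. Without mdx replicate 1 the log2 fold change of Ckb was 0.27 (edgeR adjusted p = 0.376) in place of 0.41.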

How the results depend on the processing

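Against 715 higher and 260 lower genes over all tested, DESeq2 gave 1499 and 887, the replicate block 240 and 80, a term for the animal number series 1246 and 582, and animals 373 to 375 alone 1361 and 440. Animals 358 to 363 alone gave 0 and 0 by edgeR, with 2669 genes at an unadjusted p below 0.05, 0 calls by limma-voom and 706 by DESeq2. That DESeq2 fit called 3 of the 10 energy-buffer genes, Gatm higher and Mb and Car3 lower, with 6 of 10 at an unadjusted p below 0.05. Over all 14051 genes of that fit DESeq2 called 491 higher and 215 lower, with 2166 at an unadjusted p below 0.05. With each library left out in turn, 173 to 641 genes were higher and 17 to 209 lower. Of the 10 energy-buffer genes, 1 was called higher (Gatm) with DESeq2, with median-ratio scaling, with no filter, with the 10 CPM filter and in animals 373 to 375 alone. The number called lower was 1 (Car3) with DESeq2, limma-voom or a term for the animal number series, and 3 (Car3, Ak1 and Ampd1) in animals 373 to 375 alone, where the spread comes from 2 libraries. Leaving out a library gave 0 to 0 higher and 0 to 0 lower, with 2 to 6 of the 10 at an unadjusted p below 0.05, against 19.96% to 30.5% of all genes tested in those fits. The log2 fold change of Ckm, -0.01, turned to 0.050 with the 10 CPM filter, 0.038 with the animal number series and 0.45 in animals 358 to 363, and ran from -0.39 to 0.15 with a library left out. That of Ampd1 turned to 0.14 in animals 358 to 363 and ran from -0.70 to 0.017 with a library left out, the last without mdx/Runx1f/f replicate 3. The other 8 genes kept their direction under all 16 alternatives. The cause of these shifts was not tested. Samples with the same title number had correlations of -0.0069, 0.24 and 0.28 between their deviations from the group means, so the numbers were not read as pairs. With the replicate block Gatm had an edgeR adjusted p of 0.118 and Car3 of 0.0646. With 3 and 4 libraries a group, changes of 2-fold were recovered in 50.5% of simulated cases. The simulation changed a smaller share of genes than edgeR called in the data, and its result is not for the 10 genes alone. The 50.5% is therefore not their chance of a call. How often differences of that size among the 10 genes go uncalled was not tested, and a missing call does not show that there is no difference. The lowest raw count of the 10 genes was 127 (Gatm, mdx replicate 1), and counting error was not measured apart from the spread between animals.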
